A study of Mus musculus with 56 samples.

Results

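The transcripts of macrophages and dendritic cells were followed through 33 genes in RNA from cortical and medullary thymic epithelial cells (cTECs and mTECs) sorted from the thymus of mice around parturition. The genes were taken from general knowledge of marker genes and were found in the deposited tables by their Ensembl identifiers, 33 of 33, among 50600 genes. They comprised 11 macrophage genes, 8 dendritic cell genes and 14 genes used by both and by other myeloid cells, called shared myeloid genes here. Each cell type had 28 samples. Female B6.SJL mice, a congenic line that carries the CD45.1 allele of the leukocyte antigen CD45, were mated with BALB/cJ males, and their pups were removed at birth so that the mothers did not lactate. Non-pregnant females of the same age were the controls (NPC), D-2 was day 18 of gestation, 2 days before birth, and D0 was the day of parturition. Per cell type, 3 samples came from each of D12, D6, D3, D0, D-2 and NPC, and 1 from each of D28, D24, D20, D16, D10, D8, D5, D4, D2 and D1. Samples from D0 to D12 are called early here (18 per cell type) and those from D16 to D28 late (4 per cell type). Each library came from 1 mouse. Digested thymi were enriched for the epithelial antigen EpCAM with magnetic beads, and EpCAM+CD45- cells were sorted by flow cytometry into cTECs, which do not bind the lectin UEA1, and mTECs, which do.

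Macrophages of the thymus engulf the many thymocytes that die during selection, and dendritic cells present antigens that delete self-reactive thymocytes, mostly in the medulla where mTECs lie. Both are leukocytes that carry CD45 on their surface, which the sort excluded. mTECs also transcribe, at low levels and under AIRE among other factors, many genes that belong to other tissues. The cell of origin of the transcripts described here was not tested.

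Levels are given as FPKM (fragments per kilobase of transcript, scaled to the fragments counted in the library), so that genes of different lengths can be compared with each other. Total expected counts ranged from 6470058 to 44409019 in cTECs (median 22823582) and from 4561208 to 108547384 in mTECs (median 15590738). Cortical and medullary genes differed in the direction of the labels: 5 of 5 cTEC genes were higher in cTECs and 6 of 6 mTEC genes were higher in mTECs. Each population also held transcripts of the other list. The mTEC genes summed to a mean of 4390 FPKM in cTECs and 12925 in mTECs, and the cTEC genes to 4434 and 1282 FPKM. The 33 genes took 0.00863% to 0.0230% of all counts in cTECs (median 0.0147%) and 0.0212% to 0.0997% in mTECs (median 0.0503%). The lowest of them rested on few counts. Libraries differed in how many of the 33 genes were at 0. The number was 1 to 27 in cTECs (median 10.5) and 0 to 20 in mTECs (median 4). In each cell type, the 2 libraries with the most genes at 0 were taken by rank. These were replicate 2 of D3 (27 genes at 0) and D20 (23) in cTECs and replicates 1 and 2 of D3 (20 each) in mTECs. D20 did not stand apart, since replicate 2 of NPC in cTECs had 21. The next in mTECs was replicate 1 of NPC, with 15. Tests that rest on these 4 libraries are given with and without them where this changed a count. The libraries were picked by the values of the same 33 genes, so a call gained without them is no support for a difference.

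PU.1, encoded by the member gene *Spi1*, is the transcription factor that myeloid cells share, and its core site is commonly written GAGGAA. The bases before the start site are printed for 3 macrophage genes and 1 dendritic cell gene that were lower in cTECs than in mTECs, to show where this core lies when it is present. Sequences are from RefSeq on GRCm38.p6, written 5′ to 3′ on the strand of the gene and ending at the base before the start site of RefSeq or of GENCODE, whichever comes first, and capitals mark GAGGAA or its reverse complement TTCCTC.
C1qb, chr4:136886201-136886450, minus strand: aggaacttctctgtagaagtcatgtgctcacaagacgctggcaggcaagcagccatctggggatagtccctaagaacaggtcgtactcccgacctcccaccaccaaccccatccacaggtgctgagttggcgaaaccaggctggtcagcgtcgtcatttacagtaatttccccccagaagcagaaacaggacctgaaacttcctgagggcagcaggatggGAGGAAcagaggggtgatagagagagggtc
Mrc1, chr2:14229164-14229391, plus strand: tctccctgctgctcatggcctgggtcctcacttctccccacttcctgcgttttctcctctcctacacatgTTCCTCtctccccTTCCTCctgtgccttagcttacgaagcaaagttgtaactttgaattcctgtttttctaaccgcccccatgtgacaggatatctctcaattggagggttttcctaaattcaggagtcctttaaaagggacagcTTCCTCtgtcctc
Trem2, chr17:48346151-48346400, plus strand: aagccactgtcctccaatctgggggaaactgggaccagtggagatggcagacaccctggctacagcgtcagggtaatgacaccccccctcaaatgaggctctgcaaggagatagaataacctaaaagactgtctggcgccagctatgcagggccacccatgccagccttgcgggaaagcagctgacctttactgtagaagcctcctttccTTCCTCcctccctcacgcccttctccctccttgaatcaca
Flt3, chr5:147400490-147400739, minus strand: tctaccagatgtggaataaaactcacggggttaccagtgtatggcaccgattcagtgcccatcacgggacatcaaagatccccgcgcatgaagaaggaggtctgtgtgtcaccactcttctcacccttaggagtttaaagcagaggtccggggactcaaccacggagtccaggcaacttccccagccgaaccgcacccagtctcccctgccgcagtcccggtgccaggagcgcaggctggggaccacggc
C1qb held 1 match on its own strand, and Mrc1 and Trem2 held 3 and 1 on the opposite strand. Flt3 held none. RefSeq windows from 250 bases before to 50 bases after the start were found for 26 of the 33 genes, as 27 windows, since *Fcgr3* had more than one. GAGGAA on either strand was in 14 of these 27 windows (51.9%), against 28.3% of 32851 windows of the same length over all genes. It was in 6 of 8 windows of macrophage genes, 6 of 11 of shared myeloid genes and 2 of 8 of dendritic cell genes. A match to 6 letters is a description of the sequence and not a binding site.

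Macrophage genes were low in both populations. *Adgre1*, which encodes F4/80, the surface protein that defines tissue macrophages in the mouse, was at 0 in 19 of 28 cTEC samples and reached at most 0.48 FPKM there. In mTECs, *Adgre1* ran from 0 to 4.18 FPKM with a median of 0.715, and its counts summed to 56 over the 28 cTEC libraries and to 3663 over the 28 mTEC libraries. *Timd4*, a phosphatidylserine receptor of resident macrophages, had medians of 0 FPKM in cTECs and 0.240 FPKM in mTECs. *Fcgr1*, the high-affinity IgG receptor, was at 0 in 22 cTEC and 15 mTEC samples. Its mTEC maximum of 17.5 FPKM rested on 44 counts in replicate 1 of D3, and the next highest sample had 1.58 FPKM.

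The complement genes *C1qa*, *C1qb* and *C1qc*, which encode the 3 chains of C1q and which macrophages and dendritic cells make in large amounts, lie side by side on chromosome 4 (chr4:136895917-136898803, chr4:136880129-136886187 and chr4:136889804-136893065, GRCm38, all on the minus strand). In cTECs *C1qa* ran from 0 to 3.73 FPKM with a median of 0.780, *C1qb* from 0 to 3.98 with a median of 1.03, and *C1qc* from 0 to 3.10 with a median of 0.815. In mTECs their medians were 4.13, 5.41 and 3.99 FPKM and their highest values 19.3, 22.4 and 12.9 FPKM. These 3 genes made up 34.5% of the summed level of the macrophage genes in cTECs and 46.5% in mTECs. The chains did not always move together within a library, since 6 cTEC and 4 mTEC libraries had at least 10 counts of one chain and 0 of another. All 3 chains were at 0 in 2 cTEC libraries, replicate 2 of D3 and replicate 2 of NPC.

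*Cd68*, a protein of phagocyte lysosomes, was the macrophage gene with the highest median in either cell type, 2.43 FPKM in cTECs (0 to 6.21) and 5.71 FPKM in mTECs (1.92 to 23.3). *Trem2*, a lipid receptor, had a median of 0.460 FPKM in cTECs and 3.39 FPKM in mTECs. A single cTEC library, replicate 2 of D3, held 16.3 FPKM of *Trem2*, with the next highest cTEC sample at 2.63. *Mrc1*, the mannose receptor CD206, had medians of 0.285 and 1.96 FPKM in cTECs and mTECs, and *Csf1r*, the receptor through which macrophages receive their survival signal, medians of 0.915 and 1.60 FPKM. *Mertk*, a receptor for dying cells, was the one macrophage gene with the higher median in cTECs. It ran from 0 to 2.41 FPKM there (median 1.23) and from 0 to 2.57 FPKM in mTECs (median 0.570).

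**Figure D1:**
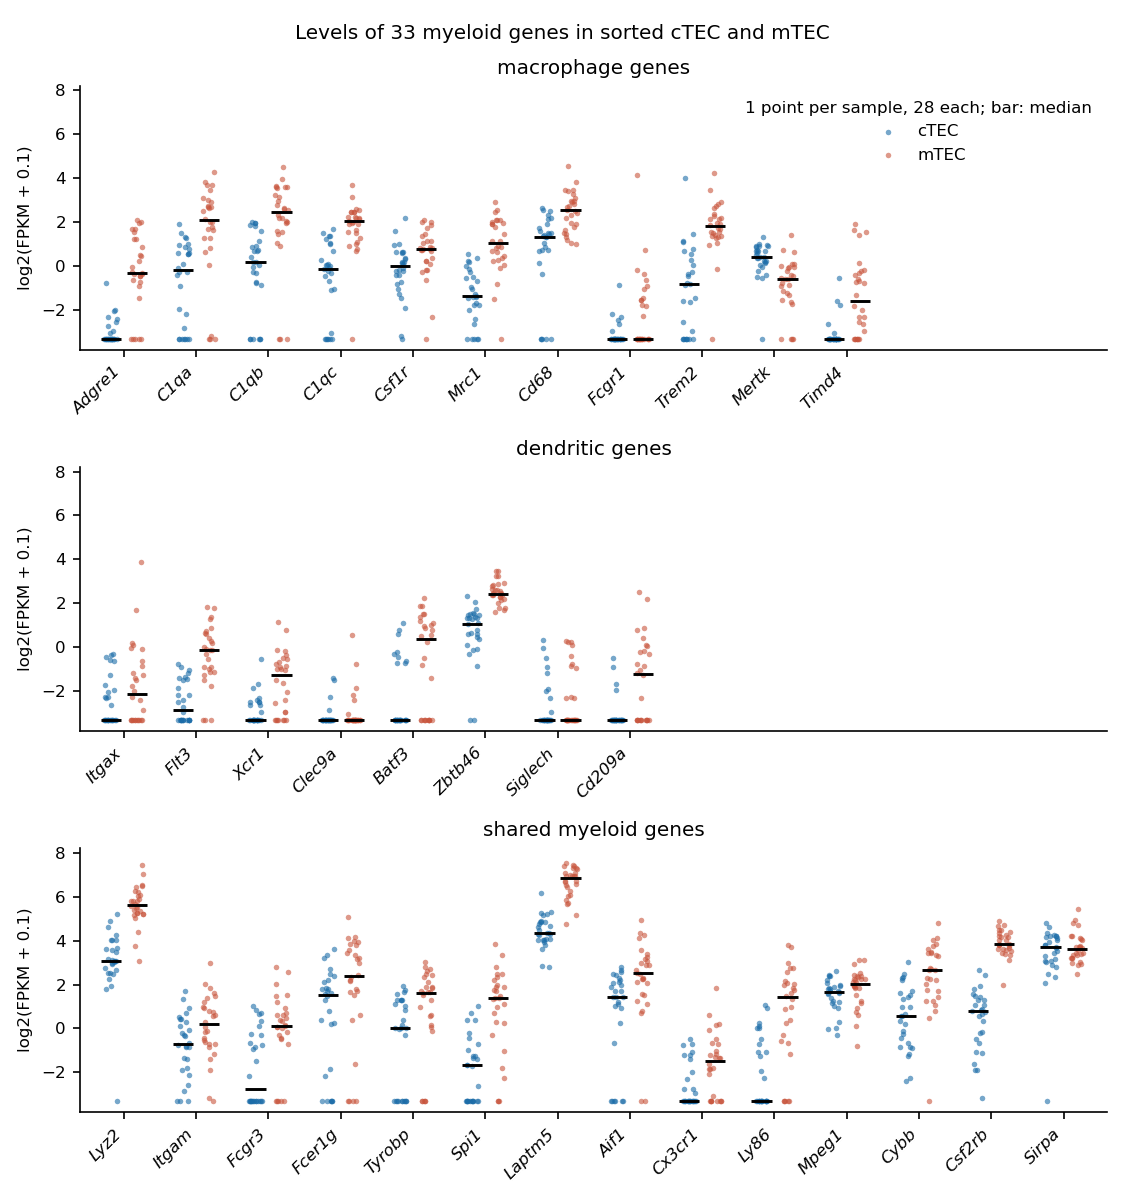
Levels of the 33 genes, one point per sample (28 cTEC and 28 mTEC samples) and a bar at the median, on an axis of log2(FPKM + 0.1), so that a value of 0 FPKM sits at the bottom of each panel. The mTEC medians lie above the cTEC medians for most genes, *Mertk* and *Sirpa* lie the other way, and the points of both cell types overlap for each gene.

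Most dendritic cell genes were at or near 0 in cTECs, apart from one. *Zbtb46*, a transcription factor of classical dendritic cells, ran from 0 to 4.98 FPKM in cTECs (median 2.01) and from 2.95 to 11.03 FPKM in mTECs (median 5.34). It alone made up 69.4% of the summed level of the dendritic cell genes in cTECs and 55.9% in mTECs. *Flt3*, the receptor for the growth factor of dendritic cells, had medians of 0.0400 FPKM in cTECs and 0.820 FPKM in mTECs, with a highest value of 3.44 FPKM.

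The genes that tell dendritic cell subsets apart had medians of 0 in cTECs. *Xcr1* and *Clec9a*, receptors of the cross-presenting subset, reached at most 0.590 and 0.280 FPKM in cTECs and 2.10 and 1.37 FPKM in mTECs, and *Clec9a* was at 0 in 24 cTEC and 22 mTEC samples. *Batf3*, the transcription factor of the same subset, had medians of 0 FPKM in cTECs and 1.2 FPKM in mTECs. *Siglech*, a lectin of plasmacytoid dendritic cells, reached 1.16 FPKM in cTECs and 1.11 FPKM in mTECs and had a median of 0 in both. *Cd209a*, a lectin of monocyte-derived dendritic cells, was at 0 in 24 cTEC samples and had a median of 0.330 FPKM in mTECs. *Itgax*, which encodes CD11c, the integrin used to sort dendritic cells, had medians of 0 and 0.130 FPKM in cTECs and mTECs. Its highest value, 14.6 FPKM, came from replicate 2 of D0 in mTECs, where the next highest sample had 3.14 FPKM.

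The shared myeloid genes held most of the summed level. *Laptm5*, a lysosomal protein of leukocytes (chr4:130913125-130936141), ran from 6.77 to 72.1 FPKM in cTECs (median 20.2) and from 27.1 to 187 FPKM in mTECs (median 114). *Lyz2*, lysozyme of myeloid cells (chr10:117277331-117282321), had medians of 8.43 FPKM in cTECs and 49.0 FPKM in mTECs. *Csf2rb*, the common beta chain of the receptors for GM-CSF and related cytokines, had medians of 1.63 and 14.2 FPKM. *Sirpa*, the receptor for CD47, had almost the same median in cTECs (12.8 FPKM) and mTECs (12.1 FPKM). These 4 genes made up 77.7% of the summed level of the 14 shared genes in cTECs and 83.2% in mTECs. *Lyz2* and *Csf2rb* each have a near copy in the genome, and their expected counts were not whole numbers in 45 and 44 of 56 samples, which means that RSEM divided some reads between copies. Their levels are uncertain to that extent.

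The signalling adaptors *Tyrobp* and *Fcer1g*, which pair with activating receptors, had medians of 0.915 and 2.77 FPKM in cTECs and 2.97 and 5.16 FPKM in mTECs. *Aif1*, the calcium-binding protein IBA1, and *Cybb*, the catalytic chain of the phagocyte oxidase, had cTEC medians of 2.59 and 1.38 FPKM and mTEC medians of 5.64 and 6.20 FPKM. *Spi1* and *Ly86*, a partner of an innate receptor on myeloid and B cells, were close to 0 in cTECs (medians 0.215 and 0 FPKM) and had medians of 2.51 and 2.57 FPKM in mTECs. *Mpeg1*, a pore-forming protein of phagocytes, lay nearer between the cell types, with medians of 3.07 and 3.98 FPKM. The integrin *Itgam* (CD11b), the IgG receptor *Fcgr3* and the chemokine receptor *Cx3cr1* had cTEC medians of 0.515, 0.0600 and 0 FPKM and mTEC medians of 1.04, 0.985 and 0.260 FPKM.

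The first comparison asked how the myeloid genes differed between the 2 epithelial populations. Most were higher in mTECs. The largest difference was that of *Adgre1*, and it was followed by *Flt3*, *Ly86*, *Trem2*, *Csf2rb* and *Mrc1*. Of these, only *Trem2* and *Csf2rb* had a mean of at least 0.5 FPKM in both cell types. *Mertk* was higher in cTECs, and *Sirpa* and *Mpeg1* were among the 8 genes that were not called. A gene was called when it differed at least 2-fold with an adjusted p (Benjamini-Hochberg) no higher than 0.01 by limma-voom, which was fitted to all genes with a mean of at least 0.5 FPKM in either cell type. Of the 33 genes, 29 entered this test. Of these, 20 were lower in cTECs and 1 was higher, while 16.5% of the 18394 genes tested were lower and 4.7% higher. The median log2 difference, cTEC minus mTEC, was -2.17 over the 29 genes and -0.03 over all genes tested. In bulk RNA, fewer cells of a type and less RNA per cell cannot be told apart.

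The filter bears on this count. Of the 29 genes, 18 had a mean of at least 0.5 FPKM in both cell types, 11 in mTECs only and 0 in cTECs only. The 11 were *Adgre1*, *Batf3*, *Cd209a*, *Fcgr1*, *Fcgr3*, *Flt3*, *Itgax*, *Ly86*, *Mrc1*, *Spi1* and *Timd4*. The filter favoured the direction of their differences, so the p values given for them below do not support that direction. A gene that entered through mTECs alone had to be lower in cTECs, so the 18 are the fairer group. Of the 18, 12 were lower in cTECs and 1 was higher, with a median log2 difference of -1.83. The share over all genes that passed in both cell types was not counted, here or for the counts by role below. *Xcr1*, *Clec9a*, *Siglech* and *Cx3cr1* passed in neither cell type. Without a filter all 33 genes were tested, 20 of them were lower in cTECs and 1 was higher, and 9.36% of 33769 genes were lower and 2.64% higher. *Fcgr3* was then no longer called, and *Xcr1* was.

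By role, over the genes that passed in both cell types, 5 of 7 macrophage genes were lower in cTECs and 1 was higher, 1 of 1 dendritic cell gene (*Zbtb46*) was lower and 6 of 10 shared genes were lower. Without a filter, 8 of 11 macrophage genes were lower and 1 was higher (median log2 difference -2.39), 4 of 8 dendritic cell genes were lower (median -1.61) and 8 of 14 shared genes were lower (median -1.78). Among macrophage genes, *Adgre1* differed by -4.98 ± 0.65 on the log2 scale (standard error, limma-voom adjusted p = 6.9e-09), *Trem2* by -3.34 ± 0.54 and *Mrc1* by -3.19 ± 0.43. *Timd4* differed by -3.05 ± 0.59 and *Cd68* by -1.76 ± 0.42. The 3 chains of C1q were close to each other, at -2.57 ± 0.57 for *C1qa*, -2.45 ± 0.55 for *C1qb* and -2.59 ± 0.45 for *C1qc*. *Mertk* was the exception, with a log2 difference of 1.41 ± 0.38 (limma-voom adjusted p = 0.0018). It was higher in cTECs at 14 of 16 time points. *Csf1r* (-0.93 ± 0.42, adjusted p = 0.0612 by limma-voom) and *Fcgr1* (-1.50 ± 0.60, adjusted p = 0.0328) were not called. Without the single *Trem2* value of 16.3 FPKM, the log2 difference of *Trem2* was -3.51, and without the single *Fcgr1* value of 17.5 FPKM that of *Fcgr1* was -1.24 (limma-voom adjusted p = 0.0679).

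Among the dendritic cell genes, *Flt3* differed by -3.45 ± 0.58 (limma-voom adjusted p = 1.8e-06), *Cd209a* by -2.17 ± 0.54 and *Zbtb46* by -1.91 ± 0.27. *Batf3* (-1.74 ± 0.60, adjusted p = 0.0128 by limma-voom) and *Itgax* (-1.16 ± 0.63, adjusted p = 0.122) were not called. The *Itgax* difference depended on the sample of 14.6 FPKM and on the time points used. It was -0.95 without that sample and 0.11 when only the 36 samples of replicated time points were fitted.

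Among the shared genes, *Laptm5* had the smallest error for its size, with a log2 difference of -2.49 ± 0.13 (limma-voom adjusted p = 9e-22). *Csf2rb* differed by -3.33 ± 0.24, *Lyz2* by -2.27 ± 0.23 and *Ly86* by -3.37 ± 0.60. *Spi1*, which encodes the myeloid regulator named above, differed by -3.00 ± 0.60. *Fcgr3* (-2.22 ± 0.63), *Cybb* (-1.97 ± 0.30), *Aif1* (-1.74 ± 0.43) and *Tyrobp* (-1.66 ± 0.47) were also lower in cTECs. *Fcer1g* (-1.60 ± 0.58, adjusted p = 0.0196 by limma-voom) and *Itgam* (-1.11 ± 0.47, adjusted p = 0.0443) were not called. *Mpeg1* (-0.43 ± 0.17, adjusted p = 0.0309) and *Sirpa* (-0.06 ± 0.16, adjusted p = 0.792 by limma-voom) differed by less than 2-fold.

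**Figure D2:**
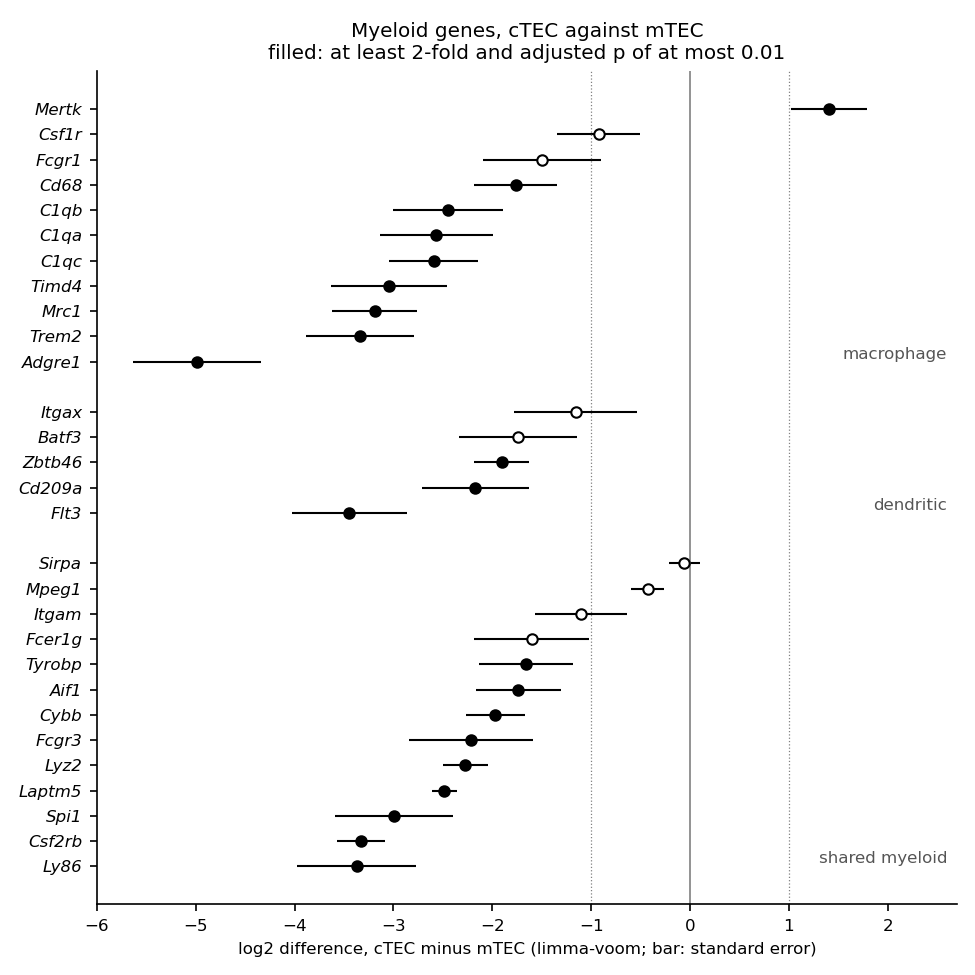
Log2 difference between cTECs and mTECs of the 29 genes tested (cTEC minus mTEC, limma-voom, 28 samples each), with bars of 1 standard error, and filled points for genes called at 2-fold and an adjusted p of at most 0.01. Of the filled points, 20 lie left of 0, 8 of them for genes that passed the filter in mTECs only, and *Mertk* lies to the right, at 1.41.

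By mean FPKM, 32 of the 33 genes were higher in mTECs, while 9647 of the 18394 genes tested had a negative log2 difference by limma-voom. Of the 33, 24 were higher in mTECs at 12 or more of the 16 time points, a count that was not made over all genes. *Adgre1*, *C1qb*, *C1qc*, *Mrc1*, *Trem2*, *Flt3*, *Lyz2*, *Laptm5* and *Csf2rb*, 9 genes in all, were higher in mTECs at each of the 16. The values of single samples overlapped between the cell types for each of the 33 genes, whereas 0.56% of the genes tested had all cTEC values below all mTEC values. Without the 4 libraries with the most zeros, 21 genes were lower in cTECs, with *Fcer1g* added, and 1 was higher (2983 and 984 of all 18394 genes tested). By edgeR's quasi-likelihood test 17 genes were lower and 0 higher (2955 and 660 of all genes). By DESeq2 23 were lower and 1 higher (3244 and 693 of all genes). The 3 tools limma-voom, edgeR and DESeq2 had 16 lower genes in common, a count that was not made over all genes. *Adgre1*, *Cd209a*, *Flt3*, *Ly86*, *Mrc1*, *Spi1* and *Timd4* were among the 16 and had passed the filter in mTECs only.

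Genes of other cells also differed between the sorted populations. The summed level of 16 thymocyte genes was 31.1 to 423 FPKM in cTECs (median 126) and 23.5 to 125 FPKM in mTECs (median 48.9). Of the 16, 12 were higher in cTECs and 0 lower, against 4.7% of all genes tested higher. *Rag2* passed the filter in cTECs only, which favoured that direction for it. *Ptprc*, which encodes CD45 itself, was also higher in cTECs, by 1.68 on the log2 scale (limma-voom adjusted p = 1.06e-05), with medians of 2.03 FPKM in cTECs and 0.760 FPKM in mTECs. The pan-leukocyte list it belongs to was split, with 1 gene higher and 2 lower in cTECs of 5 tested. *Cd52*, a surface peptide of lymphocytes, averaged 29.8 FPKM in cTECs and 107 FPKM in mTECs, and *Lcp1*, an actin-bundling protein of leukocytes, 46.1 and 116 FPKM. Neutrophil, B cell and erythroid genes went the way of the myeloid genes. Of those tested, 4 of 4, 3 of 3 and 4 of 5 were lower in cTECs, against 16.5% of all genes tested. The B cell genes *Cd79a* and *Pax5* and the erythroid genes *Hba-a1*, *Hbb-bt* and *Alas2* passed the filter in mTECs only. That favoured the lower direction for them. The mean sums were 18.8, 3.30 and 12.4 times as high in mTECs. The alarmin *S100a8*, the neutrophil gene with a mean of 64.1 FPKM in mTECs, averaged 2.40 FPKM in cTECs. The part of these cells in the myeloid differences was not tested.

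Other macrophage and dendritic cell genes outside the 33 gave a mixed picture. Of 13 other macrophage genes tested, 6 were lower in cTECs and 2 higher, and of 10 other dendritic cell genes 6 were lower and 0 higher. *Marco*, *Cd5l*, *Spic*, *Ms4a7*, *Folr2*, *Wdfy4*, *Tlr9* and *Cd207* passed the filter in mTECs only, which favoured the lower direction for them. The sums of these lists were 1.26 and 1.09 times as high in mTECs, and genes with broad use such as *Axl* and *Tcf4* (81.3 and 138 FPKM in mTECs) made up much of them.

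The macrophage and the dendritic cell genes were then set side by side. The summed level of the 11 macrophage genes was 2.22 to 20.7 FPKM in cTECs (median 9.75, mean 9.99 ± 4.31 SD, n = 28) and 13.5 to 67.5 FPKM in mTECs (median 29.8, mean 35.1 ± 15.5). The 8 dendritic cell genes summed to 0 to 5.40 FPKM in cTECs (median 2.76, mean 2.80 ± 1.53) and 3.37 to 22.4 FPKM in mTECs (median 9.73, mean 10.5 ± 4.85). By these means the macrophage genes were 3.52 times and the dendritic cell genes 3.77 times as high in mTECs as in cTECs. The 14 shared genes were 3.71 times as high, with means of 64.1 ± 21.0 FPKM in cTECs and 238 ± 96.3 FPKM in mTECs.

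The macrophage sum exceeded the dendritic cell sum in 27 of 28 cTEC samples and in 28 of 28 mTEC samples. The exception was D1 in cTECs, where the dendritic cell sum was 4.09 FPKM, all of it *Zbtb46*, and the macrophage sum 2.22 FPKM. The ratio of the sums had a median of 3.03 in the 26 cTEC samples where it could be formed (0.543 to 12.4) and of 3.13 in mTECs (1.31 to 17.1). In replicate 2 of D3 and in D20 in cTECs the dendritic cell sum was 0. These ratios rest on *Zbtb46*. Without it the medians were 10.6 in cTECs and 7.57 in mTECs, and the dendritic cell sum was 0 in 9 cTEC and 2 mTEC samples.

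**Figure D3:**
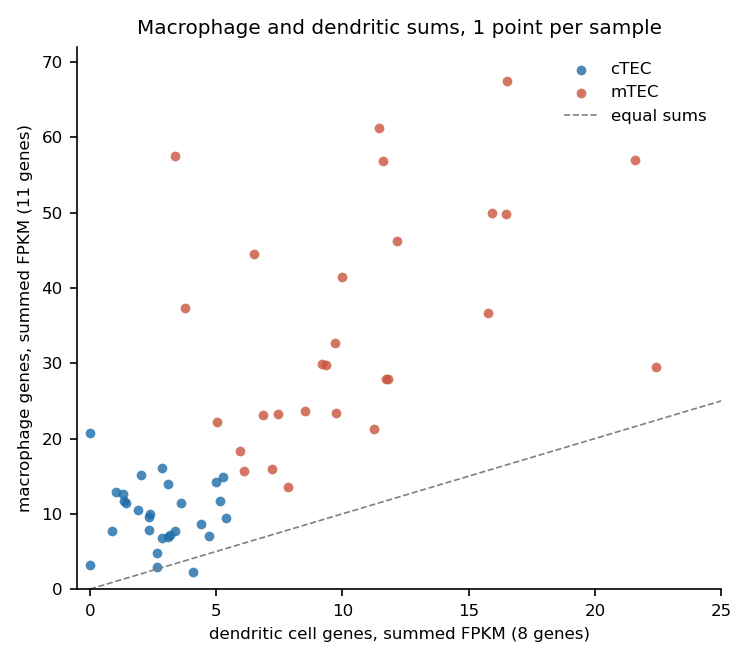
Summed FPKM of the 11 macrophage genes against that of the 8 dendritic cell genes, one point per sample, with the line of equal sums dashed. One cTEC sample, D1, lies below the line, and the mTEC samples spread from 13.5 to 67.5 FPKM on the macrophage axis.

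The next question was whether the myeloid genes moved with involution and regrowth. D6 was compared with D-2 within each cell type, as the time of fastest growth against that of the smallest thymus. In cTECs *Laptm5* fell, and no other of the 18 genes tested was called. It was 19.8, 37.8 and 28.7 FPKM at D-2 and 13.8, 6.77 and 12.2 FPKM at D6. The log2 difference was -1.81 ± 0.30 (limma-voom adjusted p = 0.00947). One of 18 genes called, in the lower direction, stands against 0.669% of genes called lower and 0.675% called higher. The *Laptm5* call was close to the threshold. It was lost when any one of the 6 libraries was left out, with adjusted p from 0.0172 to 0.0442 by limma-voom, and its log2 difference then ranged from -1.999 to -1.50. *Csf2rb* was 0.780, 3.74 and 1.68 FPKM at D-2 and 0.170, 0.360 and 0.370 FPKM at D6 (log2 difference -2.79, limma-voom adjusted p = 0.0871), and DESeq2 called it. At an unadjusted p under 0.05 there were 4 of the 18 genes, against 3686 of all 15845 genes tested, and the other 2 were *Mertk* and *Cybb*. Over these same samples the summed level of the thymocyte genes was 34.0 to 37.9 FPKM at D-2 and 100.9 to 130 FPKM at D6. Other lists went down with *Laptm5*. The sum of the mTEC genes was 4183 to 6577 FPKM at D-2 and 1930 to 2718 FPKM at D6, with 0 of 6 called, 5 at an unadjusted p under 0.05 and a median log2 difference of -1.79. The B cell sum was 3.04 to 8.87 FPKM and then 0 to 1.81 FPKM, and the mesenchymal sum 272 to 354 FPKM and then 102 to 144 FPKM, with 1 of 4 genes tested called lower. The part of these shifts in the *Laptm5* difference was not tested.

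In mTECs 0 of 29 genes were called between D6 and D-2, where 0.101% of genes were higher and 0.197% lower by limma-voom. There were 6 of the 29 genes at an unadjusted p under 0.05, all of them lower at D6, against 3596 of all 17743 genes tested in either direction. edgeR called 0 and DESeq2 1, which was *Lyz2*. *Lyz2* was 45.6, 76.7 and 55.4 FPKM at D-2 and 37.4, 8.29 and 13.3 FPKM at D6 (log2 difference -1.70 ± 0.44, limma-voom adjusted p = 0.0788). *Laptm5* was 127, 169 and 96.4 FPKM at D-2 and 102, 27.1 and 67.8 FPKM at D6, and the groups overlapped. In the test of whether the change differed between cell types, 0 of 29 genes were called (0 by edgeR and by DESeq2), with 0.00544% of genes called higher and 0% lower. At an unadjusted p under 0.05 there were 2 of the 29, against 2203 of all 18394 genes tested.

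Between D-2 and NPC, the comparison of late gestation with the non-pregnant state, 0 of 18 genes were called in cTECs and 0 of 29 in mTECs. No gene was called over the whole table either, 0% in each direction in each cell type by limma-voom. At an unadjusted p under 0.05 there were 0 of the 18 genes in cTECs and 6 of the 29 in mTECs, and edgeR and DESeq2 called 0 of them. Over all genes tested, 1564 of 15845 in cTECs and 2267 of 17743 in mTECs had such a p. The lowest adjusted p of the myeloid genes in mTECs was that of *Mrc1*, which was 3.93, 5.77 and 4.24 FPKM in NPC and 1.80, 1.44 and 1.26 FPKM at D-2. The log2 difference was -1.73 ± 0.41 (limma-voom adjusted p = 0.152).

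**Figure D4:**
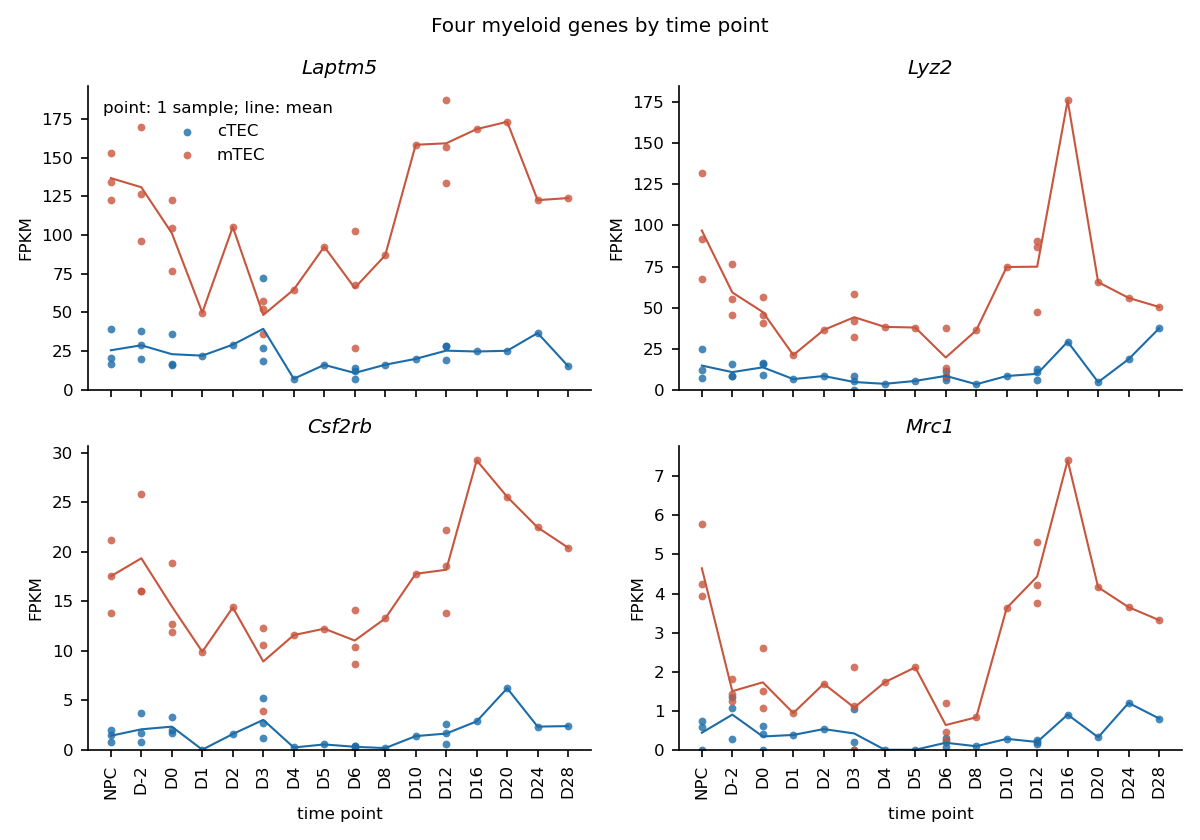
FPKM of *Laptm5*, *Lyz2*, *Csf2rb* and *Mrc1* by time point, one point per sample and a line through the means, for cTECs and mTECs (NPC, non-pregnant control; D, day from parturition). In mTECs the means of all 4 genes are lower at D6 than at NPC and D12, and at the time points between D0 and D28 with one point the line passes through a single sample.

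Over the whole course, the shared sum in mTECs was lower from D1 to D8, where no sample was above 206 FPKM, than in NPC and from D10 on, where none was below 257 FPKM. The mean summed level of the shared genes in mTECs was 329 FPKM in NPC (301 to 361), 258 at D-2 (213 to 342), 131 at D3 (113 to 150), 131 at D6 (63.7 to 206), 345 at D12 (320 to 381) and 325 in the 4 late samples (257 to 446). The macrophage genes were likewise lowest at D6 and highest at D12 among the replicated time points by mean, but spread widely at D3, with 39.5 FPKM in NPC (36.7 to 44.5), 27.98 at D-2 (23.3 to 32.7), 31.4 at D3 (57.5, 23.2 and 13.5), 20.5 at D6 (15.8 to 29.8) and 61.9 at D12 (56.8 to 67.5). Replicate 3 of D3, the D3 library in mTECs that was not among those with the most zeros, had a shared sum of 113 FPKM, a macrophage sum of 13.5 FPKM and 35.96 FPKM of *Laptm5*. The dendritic cell sum overlapped between NPC (3.75 to 15.8 FPKM), D-2 (9.70 to 11.7) and D12 (11.4 to 16.5), while D6 (6.11 to 9.19) lay below both D-2 and D12. In cTECs the shared sum was 36.2 to 47.3 FPKM at D6 and 46.8 to 75.4 at D12. The late cTEC samples lay at 78.1 to 102 FPKM, with a mean of 92.1, and the early ones at 33.5 to 89.6, with a mean of 56.9, so that they overlapped. Without D20, which was the lowest of the late samples, the late ones lay at 93.4 to 102 FPKM, above all early ones. Leaving out the lowest sample favours such a gap. The summed level of 7 neutrophil genes in mTECs followed a like course, with means of 174 FPKM in NPC, 136 at D-2, 34.9 at D3, 54.1 at D6 and 221 at D12. Its part in the myeloid course was not tested.

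**Figure D5:**
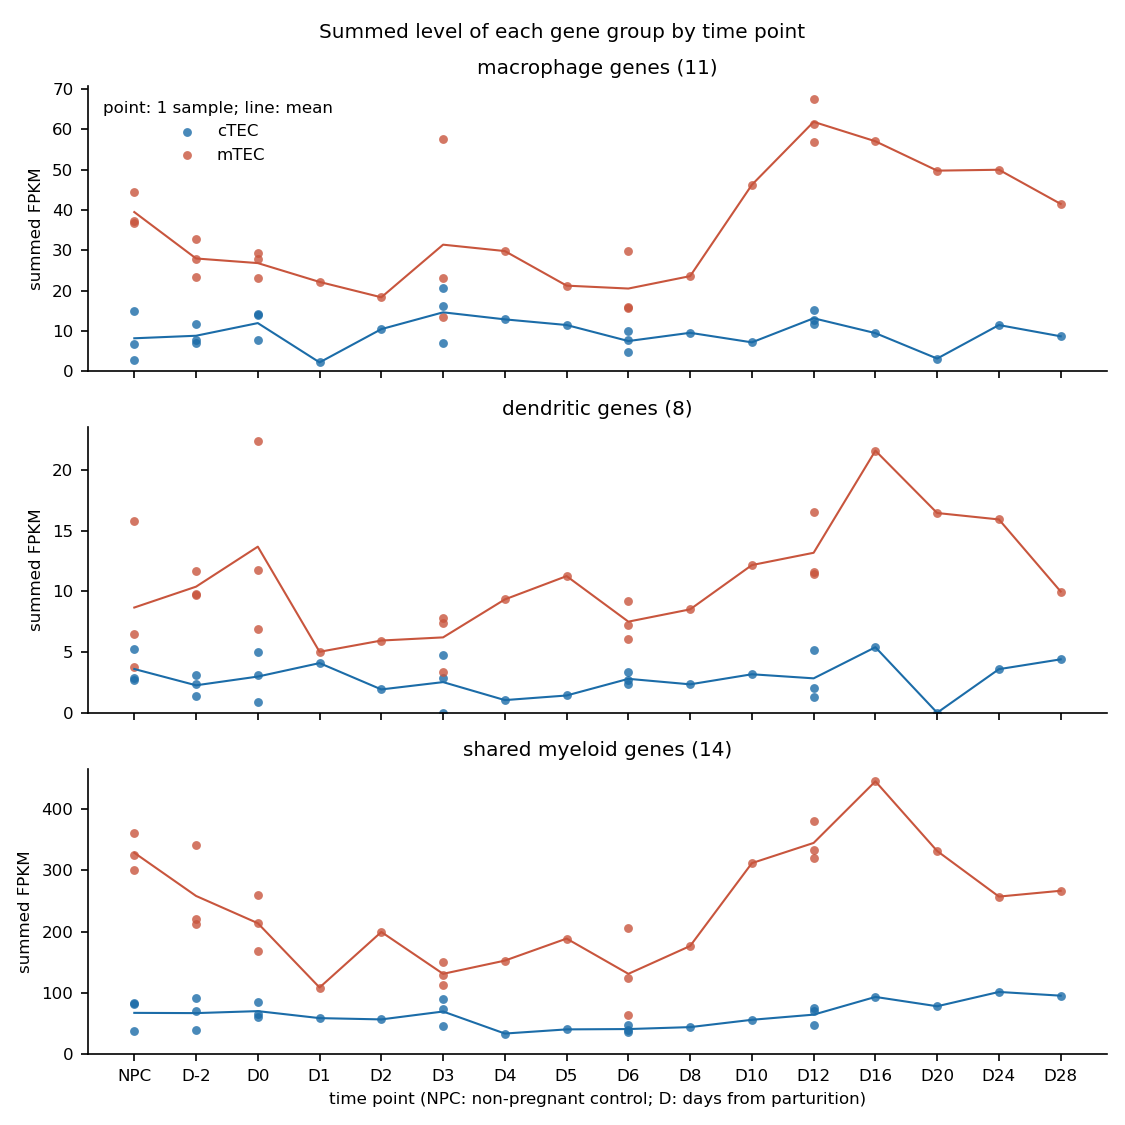
Summed FPKM of the 11 macrophage, 8 dendritic cell and 14 shared myeloid genes by time point, one point per sample and a line through the means. The mTEC shared sum has means of 131 FPKM at D3 and D6 and stands at 345 FPKM at D12, and the cTEC sums lie below the mTEC sums at each time point by their means.

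Tested gene by gene over the 6 replicated time points, 0 of 29 genes were called in mTECs and 0 of 18 in cTECs, against 0.766% and 1.02% of all genes. In mTECs 10 of the 29 genes had an unadjusted p under 0.05, against 3983 of all 17743 genes tested. The adjusted p was 0.0185 for *Laptm5*, 0.0256 for *Ly86*, 0.0384 for *Lyz2*, 0.0469 for *Mrc1* and 0.0479 for *Aif1* by limma-voom. In cTECs 2 of the 18 genes had an unadjusted p under 0.05, against 2673 of all 15845. Without the 4 libraries with the most zeros, 0 genes were called in either cell type. DESeq2 called *Laptm5* in both cell types and *Lyz2* in mTECs, and edgeR called 0 in both. *Mrc1* in mTECs was 1.19, 0.250 and 0.460 FPKM at D6 and 3.75, 4.23 and 5.33 FPKM at D12. *Laptm5* in mTECs was 52.0, 57.2 and 35.96 FPKM at D3 and 157, 187 and 134 FPKM at D12. Neither pair of time points was tested on its own.

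Late samples were compared with early samples last. In cTECs 0 of 18 genes were called, where 1.14% of genes were higher and 0.271% lower in the late samples, and edgeR and DESeq2 called 0. At an unadjusted p under 0.05 there were 3 of the 18, against 4310 of all 15845 genes tested. The lowest adjusted p was that of *Csf2rb* (log2 difference 2.30 ± 0.60, limma-voom adjusted p = 0.0165), which was 2.34 to 6.21 FPKM in the 4 late samples. Without the 4 libraries with the most zeros, *Cybb* and *Lyz2* were called higher in the late cTEC samples. Over all 15845 genes, 283 were then higher and 46 lower. One of the 4 libraries was D20, a late cTEC sample, and leaving it out for its zeros favours higher late values. Of the mTEC genes, 2 of 6 were called higher in the late cTEC samples (median log2 difference 0.93), and of the mesenchymal genes tested 1 of 4 (median 1.37). Their part in the late differences was not tested. In mTECs 0 of 29 genes were called, where 0.0564% of genes were higher and 0.00564% lower, and edgeR and DESeq2 called 0. At an unadjusted p under 0.05 there were 10 of the 29, against 3541 of all 17743 genes tested. *Csf2rb* (0.75 ± 0.17, adjusted p = 0.0238), *Flt3* (2.08 ± 0.54, adjusted p = 0.0438) and *Mrc1* (1.31 ± 0.35, adjusted p = 0.0487 by limma-voom) had the 3 lowest adjusted p. *Flt3* was 2.52, 3.44, 3.32 and 0.850 FPKM at D16, D20, D24 and D28. With the D12 samples counted as late, *Mrc1* was called higher in late mTECs (log2 difference 1.58, limma-voom adjusted p = 0.00577), as were 114 of all 17743 genes.

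Finally, *C1qa* was used as the reference for which genes rose and fell with it over the 28 samples of a cell type. The 64 relations of the other 32 genes, 32 in each cell type, were computed on log2(FPKM + 0.5), and p came from 100000 permutations, two-sided, and was adjusted over all genes with a mean of at least 0.5 FPKM in that cell type. In mTECs r was positive for 28 of 32 genes, with a median of 0.35 against 0.08 over all genes. One of the 28 genes tested passed an adjusted p of 0.05, where 3.07% of genes passed. That gene was *Flt3* (Pearson's r = 0.71, permutation p = 6e-05, adjusted p = 0.0159, Spearman's rho = 0.67, permutation p = 0.00012). The samples farthest from the median of *C1qa* were 3 libraries tied at 0 for it, replicates 1 and 2 of D3 and replicate 1 of NPC, and all 3 were at 0 for *Flt3* too. Leaving out any 2 of them gave r = 0.62, and leaving out all 3 gave r = 0.54 (n = 25). The other chains of C1q had r = 0.50 (*C1qb*) and r = 0.49 (*C1qc*) in mTECs. Without the 4 libraries with the most zeros, no gene of the whole table passed, *Flt3* included. The median r of the 32 genes was then 0.25, against 0.05 over all genes.

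In cTECs r was positive for 26 of 32 genes, with a median of 0.17 against 0.05 over all genes and a range from -0.37 to 0.63. None of the 17 genes tested passed, and 0% of all genes did. The highest was *C1qc* (Pearson's r = 0.63, permutation p = 0.00037, adjusted p = 0.586, Spearman's rho = 0.61, permutation p = 0.00084), and leaving out the 2 samples farthest from the median gave r from 0.59 to 0.73, since the second place was tied among 7 samples at 0 for *C1qa*. Without the farthest and all 7, r was 0.59 (n = 20). By group, the median r with *C1qa* in mTECs was 0.35 for the macrophage genes, 0.36 for the dendritic cell genes and 0.34 for the shared genes. These values share libraries and their depth, and many of them rest on few counts.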

How the data were processed

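RNA of sorted cTECs and mTECs (56 libraries, poly-A selected, stranded) had been read on a NextSeq500. Per the labels and the study's methods, the authors used bcl2fastq 2.20, Trimmomatic 0.35, STAR 2.5.1b and RSEM 1.2.28 on GRCm38; the annotation release is not given in the sources used here. For each sample they deposited expected counts, which are estimates per gene without normalization, and FPKM and TPM values scaled from them. The TPM values deposited by the authors served as an alternative unit for the sums and correlations. GENCODE M21 gave symbols and positions for 50376 of 50600 identifiers.

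Expected counts were rounded and tested with limma 3.58.1 (voom) in R 4.3.3 after TMM scaling (edgeR 4.0.16), on genes with a mean of at least 0.5 FPKM in the cell type, or in either for comparisons across cell types. The contrast of D6 with D-2 and that of D-2 with NPC were fitted to the samples of those time points. Calls needed a 2-fold difference and an adjusted p (Benjamini-Hochberg) no higher than 0.01. Sums of FPKM carry no test. The correlations were planned with adjustment over 64 pairs and were adjusted over all genes instead. Python 3.11.15, NumPy 2.4.6, pandas 2.3.3 and SciPy 1.17.1 were used for these. DESeq2 1.42.0 and edgeR's quasi-likelihood test were among the alternatives. The 33 genes, the other gene lists and the comparisons were chosen with earlier results of these data known. Named genes are the 33 members, and genes of other lists only where a result touches them; *Axl*, *Tcf4*, *S100a8*, *Ptprc*, *Cd52* and *Lcp1* were chosen after their values were seen. Some results on genes outside the 33 are not reported here.

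Replicates were separate mice. No pair of replicates agreed within sampling noise: over 36 pairs, the lowest chi-square per degree of freedom was 9.15. In counts simulated from the same libraries with 200 genes changed 4-fold, limma-voom called 78.5% of them between the cell types (18394 genes), 50.5% in cTECs (15845 genes) and 57.5% in mTECs (17743 genes) for D6 against D-2, 31.5% and 22.0% for D-2 against NPC, 60.0% and 56.0% for late against early, where 10.4% and 11.1% of the calls were false, and 33.0% and 33.5% among time points. For the interaction it called 24.5% (18394 genes). The changed genes were drawn only from those above a set mean count, so recovery among genes with fewer counts was not measured.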

Additional observations from a re-analysis of the deposited data

Results flagged for a closer look

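Among the 4 late samples of each cell type, 53 groups of values were checked for a single sample far from the others, and 3 passed Dixon's critical value for groups of 4, while chance alone passes about 1 in 20. *Csf2rb* in cTECs was 6.21 FPKM at D20, against 2.34 to 2.87 FPKM in the other late samples. D20 was one of the 2 cTEC libraries with the most genes at 0. *C1qa* in mTECs was 19.3 FPKM at D24, against 6.30 to 7.91 FPKM. *Lyz2* in mTECs was 176 FPKM at D16, against 50.4 to 65.5 FPKM.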

How the results depend on the processing

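For the cell types, 15 to 24 genes were lower in cTECs under the 11 alternatives, 20 to 22 when each sample was left out, and 12 genes were lower under every one of these alternatives. Of these 12, *Adgre1*, *Mrc1*, *Flt3* and *Spi1* had passed the filter in mTECs only, which favoured their direction. A count under every alternative was not made over all genes. *Mertk*, the 1 gene higher in cTECs, was not called (0 genes) by edgeR, by limma-trend on log2(FPKM + 0.5) or on the 36 samples of replicated time points, and leaving out a sample kept the count at 1. *Itgax* turned to 0.11 on those 36 samples, and *Sirpa* ranged from -0.16 to 0.026 without each sample, above 0 without replicate 2 of NPC in cTECs. The causes were not tested. For D6 against D-2 in cTECs, the count of 1 became 2 by DESeq2 and 0 by both limma-trend fits, without TMM, with the replicate block and without any one sample (0 to 0). In mTECs it became 1 by DESeq2 and with sample quality weights, and stayed at 0 without each sample. DESeq2 called 446 genes lower and 314 higher over the whole table in cTECs, against 106 and 107 by limma-voom, and 367 and 97 in mTECs, against 35 and 18. For late against early, cTECs gave 2 genes at an adjusted p of 0.05, with quality weights and without the 4 libraries (an alternative added after the data were seen), and 0 to 1 without each late sample (1 without D20). Over all 15845 genes, the settings that gave 2 called 508, 663 and 283 higher and 138, 382 and 46 lower, in that order. mTECs gave 2 genes at an adjusted p of 0.05, 1 with D12 counted as late, and 0 without each late sample. Over all 17743 genes, 148 were higher and 36 lower at an adjusted p of 0.05, and 114 and 45 with D12 counted as late. Among time points, DESeq2 gave 1 gene in cTECs and 2 in mTECs, and mTECs gave 1 without a filter, 5 at an adjusted p of 0.05 and 0 to 2 without each sample (1 without replicate 1 of D6, 2 without replicate 3 of NPC). Over all genes, DESeq2 gave 472 in cTECs and 408 in mTECs. In mTECs it was 502 of 30525 genes without a filter and 804 of 17743 at an adjusted p of 0.05. The count of genes correlated with *C1qa* in mTECs was 1, 5 without NPC and 0 without the 4 libraries. Over all 17742 genes it was 544, 1127 and 0. Without *Zbtb46*, also tried after the data were seen, the median macrophage to dendritic ratio was 10.6 in cTECs and 7.57 in mTECs. D-2 against NPC and the interaction stayed at 0 under each alternative run. Samples of the same replicate number had median correlations of -0.013 to 0.023, with single values up to 0.379 in cTECs and 0.342 in mTECs, both for number 3. For cTEC and mTEC samples of the same title number the median was 0.025. The labels do not say whether such samples came from the same mouse, and low correlations cannot show that they did not. With the replicate block the cell types still gave 20 lower genes and 1 higher. Over single genes and alternatives other than leaving out a sample, 374 values kept direction and call, 28 gained the call, 23 lost it and 1 reversed. The lowest genes rest on few counts per library, which limits what could be detected in cTECs.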
